A study of Sus scrofa with 9 samples.

Results

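Apolipoproteins are the protein coat of the particles that carry fat and cholesterol through blood. The liver makes most of them. APOB is the large scaffold of very-low-density lipoprotein (VLDL), and MTTP, the microsomal triglyceride transfer protein, loads lipid onto APOB in the endoplasmic reticulum before the particle is secreted. APOA1 and APOA2 are the main proteins of high-density lipoprotein (HDL), APOC3 slows the breakdown of triglyceride-rich particles, APOE is the ligand through which remnants are taken up, APOA4 travels on particles made in the fed state, APOM carries sphingosine-1-phosphate on HDL, and APOH is an abundant plasma glycoprotein that binds phospholipid. The 9 genes APOA1, APOA2, APOA4, APOB, APOC3, APOE, APOH, APOM and MTTP were taken by symbol from a table of 25918 rows of liver expression values. Each of them had 1 row, and 9 of 9 passed the filter on low values that left 12584 genes to test.

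The samples were livers of Wujin pigs, a Chinese breed, that were 35 days old at the start and were fed for 30 days after 5 days of adaptation. Feed of the low-iron group had 0 mg/kg of iron added to the basic diet, the control group had 100 mg/kg added and the high-iron group had 200 mg/kg added, as iron glycinate where iron was added. RNA was sequenced from 3 pigs per group, one library each, and the libraries carry the animal numbers 2, 3 and 7 (low-iron), 4, 5 and 6 (control) and 2, 7 and 8 (high-iron), which name the replicates here. The diets were set by added iron alone, so the basic diet's own iron reached all 3 groups, and bulk liver mixes hepatocytes with other cells.

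Expression is given as FPKM, fragments per kilobase of transcript scaled to the mapped fragments of the library. The unit is divided by length so that levels of genes can be set beside each other. Differences between libraries that ran with transcript length remained after it, and are described below as a length gap. The FPKM of a library summed to between 416922 and 456420, and the number of fragments behind each value is unknown because the table holds no counts. ALB, the albumin gene and a hepatocyte marker, lay between 46231 and 74134 FPKM in the 9 libraries. The study's pigs were male and female in equal numbers, and EIF1AY, a gene on chromosome Y, is the only mark of sex used here. Reads of EIF1AY were above 0 in 2 of 3 low-iron, 2 of 3 control and 1 of 3 high-iron libraries, so the groups differed in that count. A gene was called in a comparison when limma gave an unadjusted p under 0.05 and the fold change was at least 2 on the log2(FPKM + 0.1) scale.

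Of the 9 genes 6 lie apart in the pig genome, and 3 are neighbours. On Sscrofa11.1, APOA4 (chromosome 9, 44201587 to 44204072, minus strand), APOC3 (44211171 to 44213538, plus strand) and APOA1 (44216481 to 44218360, minus strand) follow each other, with 7098 bases between APOA4 and APOC3 and 2942 bases between APOC3 and APOA1. With APOA5 (44177834 to 44180880), an activator of plasma triglyceride breakdown, the cluster spans 40527 bases. APOA2 lies on chromosome 4 (89237514 to 89239126), APOB on chromosome 3 (117250096 to 117316200), APOE on chromosome 6 (51373113 to 51375333), APOM on chromosome 7 (23768974 to 23773324), MTTP on chromosome 8 (120820660 to 120871468) and APOH on chromosome 12 (12827195 to 12839172). APOA4 overlaps a long noncoding RNA gene on the opposite strand, LOC106504887 (44194947 to 44209641), and since the use of strand in counting is not given in the sources used here, reads of the pair cannot be told apart and APOA4 levels carry that uncertainty. No annotated gene overlaps any of the other 8.

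The 300 bases before the annotated start are shown for the 3 neighbours, whose levels moved in different ways, and for APOA2, which with APOA4 had the lowest p-values in high-iron against control. They are RefSeq sequences of Sscrofa11.1, read 5′ to 3′ on the strand of the gene, and capitals mark matches to 2 motifs of HNF4A, the nuclear receptor that holds many liver genes on.
APOA4, chr9:44204073-44204372, minus strand: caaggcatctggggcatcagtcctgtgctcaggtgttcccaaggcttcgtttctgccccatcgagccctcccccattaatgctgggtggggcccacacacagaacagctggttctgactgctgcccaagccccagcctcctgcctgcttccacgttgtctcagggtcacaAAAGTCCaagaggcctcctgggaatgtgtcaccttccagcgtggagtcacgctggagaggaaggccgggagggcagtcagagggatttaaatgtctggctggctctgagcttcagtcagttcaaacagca
APOC3, chr9:44210871-44211170, plus strand: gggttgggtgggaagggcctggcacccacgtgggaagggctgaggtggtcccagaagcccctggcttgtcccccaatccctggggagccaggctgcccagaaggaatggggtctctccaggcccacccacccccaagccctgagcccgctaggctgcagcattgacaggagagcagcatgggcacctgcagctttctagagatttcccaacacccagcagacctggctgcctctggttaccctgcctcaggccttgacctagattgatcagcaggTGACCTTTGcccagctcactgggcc
APOA1, chr9:44218361-44218660, minus strand: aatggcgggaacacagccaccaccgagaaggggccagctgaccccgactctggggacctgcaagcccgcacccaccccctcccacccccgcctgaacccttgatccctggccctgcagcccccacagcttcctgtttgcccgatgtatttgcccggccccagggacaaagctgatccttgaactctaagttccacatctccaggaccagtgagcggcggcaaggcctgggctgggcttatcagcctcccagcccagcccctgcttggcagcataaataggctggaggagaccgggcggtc
APOA2, chr4:89237214-89237513, plus strand: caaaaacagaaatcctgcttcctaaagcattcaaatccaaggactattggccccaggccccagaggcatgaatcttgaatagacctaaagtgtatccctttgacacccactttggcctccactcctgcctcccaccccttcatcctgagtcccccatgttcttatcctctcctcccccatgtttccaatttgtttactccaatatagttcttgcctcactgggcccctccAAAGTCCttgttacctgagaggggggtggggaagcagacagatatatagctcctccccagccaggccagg

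Each of 4 motifs was searched on both strands of the same 300-base window before 20652 genes. The HNF4 direct repeat CAAAGGTCA was found in 0.310% of windows, and of the 9 genes in APOC3, where it starts 25 bases before the annotated start and reads TGACCTTTG on the plus strand. The shorter HNF4 core AAAGTCC was found in 3.52% of windows and in 2 of the 9 genes, 70 bases before the start of APOA2 and 130 bases before that of APOA4. The letters TATAAA, taken for a TATA box, were found in 12.7% of windows and, among the 9 genes, only in APOM. There they start 232 bases before the annotated start. Other spellings of a TATA box were not searched, so a window without these exact letters may still hold one. The cyclic AMP response core TGACGT was found in 7.38% of windows and in none of the 9 genes. No motif of the 4 contains another, and a match is a description of the letters and not of a bound site.

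The 9 genes ran from some of the most abundant transcripts of the liver down to moderate ones, in an order that was mostly the same in each pig. APOC3 was the highest at a mean of 6610 FPKM over 9 libraries and ranked 4 among all genes by that mean. APOE followed at 5178 FPKM, APOH at 2886 FPKM and APOA1 at 1630 FPKM. APOC3 lay above APOE, APOE above APOH, APOH above APOA1 and APOA1 above APOA2 in 9 of 9 libraries each. APOA2 (mean 498 FPKM), APOA4 (465 FPKM) and APOB (459 FPKM) had no fixed order, with APOA2 above APOA4 in 6 of 9 libraries and APOA4 above APOB in 3 of 9. MTTP at a mean of 120 FPKM and APOM at 65.9 FPKM closed the order, MTTP below APOB and APOM below MTTP in 9 of 9 libraries. APOA4 lay outside this order in the pigs with least of it, lying below APOM in low-iron replicate 2 and below MTTP in that pig and in control replicates 4 and 5.

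**Figure D1:**
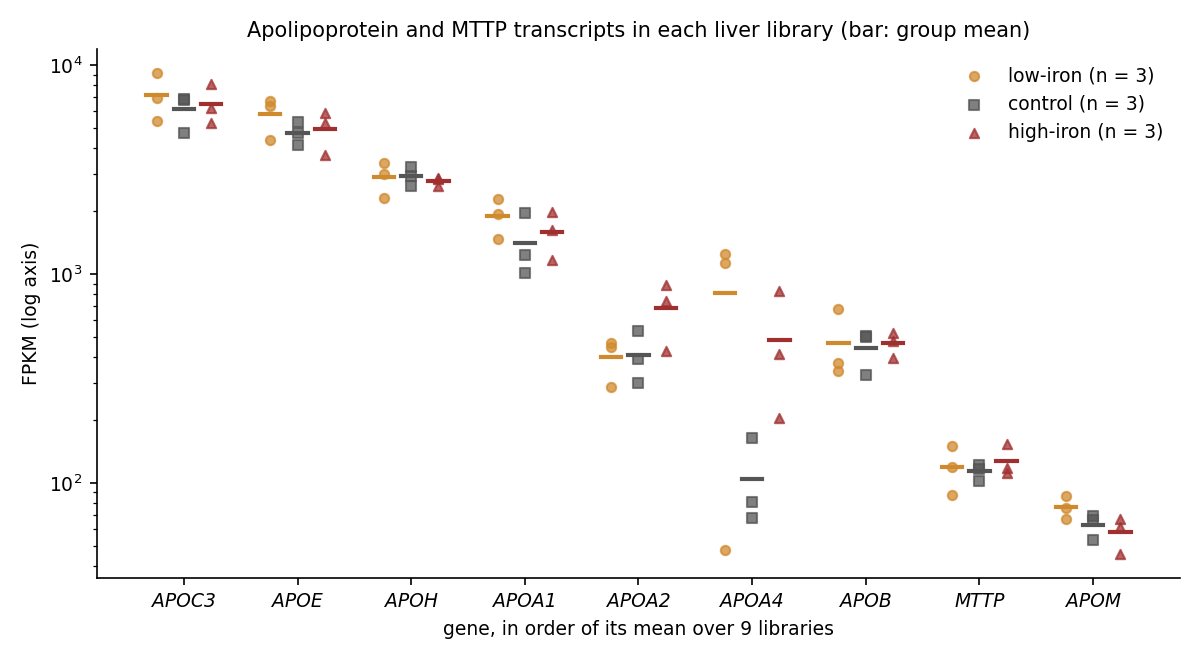
FPKM on a log axis (vertical) of the 9 genes (horizontal, in order of their mean), with one point per library, colours and shapes for the 3 diets and a bar at the mean of the 3 pigs of a group. APOC3, APOE and APOH hold the top in each group, and APOA4 alone spreads widely, from 47.6 to 1248 FPKM.

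No member of the set was called in any of the 3 comparisons. Of 9 genes, 0 were called in low-iron against control, where 0.882% of all tested genes were, 0 in high-iron against control (1.57% of all) and 0 in high-iron against low-iron (1.54% of all). At an unadjusted p under 0.05 the members numbered 0, 1 and 1 in that order, beside 3.68%, 5.59% and 7.15% of all genes, and the gene was APOA2 both times. The adjusted p-values of the members ran from 0.696 to 1.00 in limma, and over all 12584 genes 0, 1 and 0 passed 0.05. The median log2 fold change over the 9 genes was 0.21 for low-iron against control, where the median over all tested genes was 0.08. It was 0.09 for high-iron against control (0.10 over all) and -0.04 for high-iron against low-iron (0.03 over all). The 2 groups of a comparison did not overlap for 0, 1 and 1 of the 9 genes, beside 8.34%, 10.9% and 13.2% of all genes. In this bulk tissue, fewer cells of a type and less RNA per cell cannot be told apart.

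**Figure D2:**
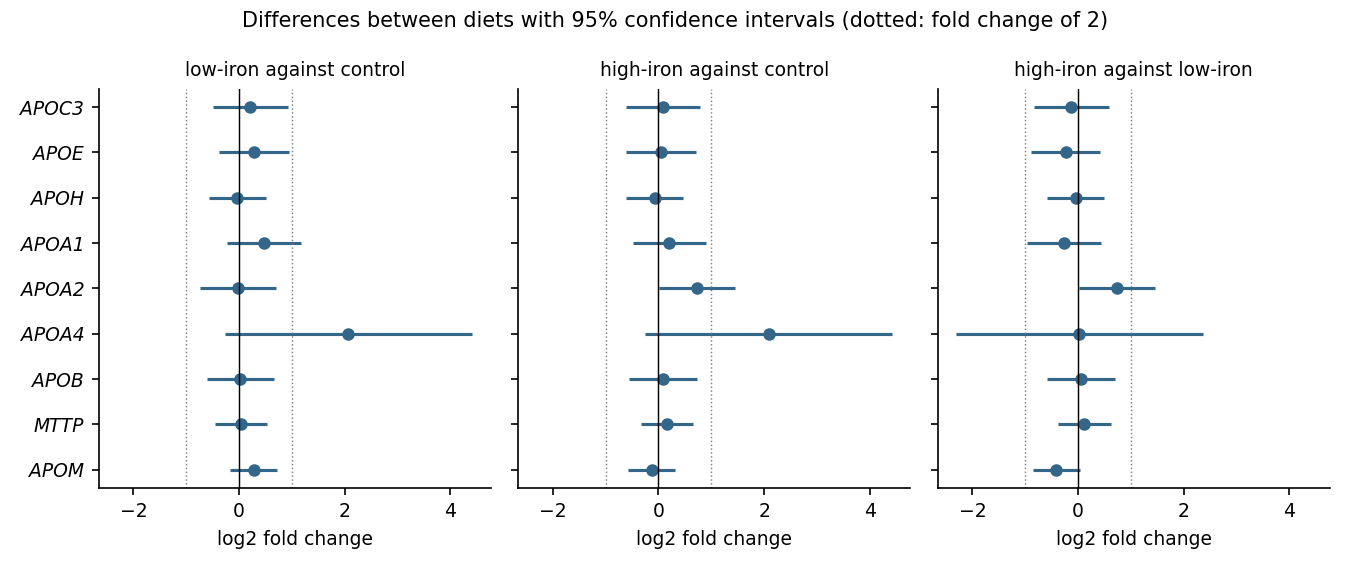
Log2 fold change (horizontal) of each gene (vertical) in the 3 comparisons, with the limma estimate as a point, its 95% confidence interval as a line and dotted lines at a fold change of 2. APOA4 has by far the widest intervals, from -0.25 to 4.43 for high-iron against control, and only the 2 intervals of APOA2 that involve the high-iron group exclude 0.

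APOA4 had the largest differences from the control group and also the largest spread between pigs. In the low-iron group it stood at 47.6, 1248 and 1127 FPKM in replicates 2, 3 and 7. The control pigs 4, 5 and 6 had 68.1, 81.1 and 163 FPKM. In the high-iron group replicates 2, 7 and 8 had 414, 203 and 831 FPKM. All 3 high-iron pigs and 2 of the 3 low-iron pigs therefore lay above every control pig, and the remaining low-iron pig lay below all of them. Group means were 808 ± 661 FPKM in the low-iron, 104 ± 51.7 in the control and 483 ± 320 in the high-iron group (SD, n = 3). The log2 fold change from control was 2.07 (SE 1.06, adjusted p = 1.00) for low iron and 2.09 (SE 1.06, adjusted p = 0.903) for high iron in limma, and both comparisons share the control pigs. The high-iron and control groups did not overlap, and the exact permutation test of these 2 groups gave p = 0.10, the lowest that 3 against 3 allows. Over the 3 groups the exact permutation test gave p = 0.30.

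Whether APOA4 was called depended on the libraries and the fit. It was called in high-iron against control when only the 2 groups compared were fitted, without the low-iron pigs (log2 fold change 2.09, SE 0.51, adjusted p = 0.889). With all 9 libraries it was called there under array quality weights (2.51, SE 1.09, adjusted p = 0.615). Without low-iron replicate 2 the log2 fold change against control was 3.62 (SE 0.54, adjusted p = 0.403) for low iron and stayed 2.09 (SE 0.48, adjusted p = 0.924) for high iron, and high-iron against low-iron turned from 0.02 to -1.52 (SE 0.54, adjusted p = 0.803). All 3 differences then met the rule for a call, which uses the unadjusted p. Leaving out low-iron replicate 3 or 7 instead gave 1.26 or 1.33 for low iron against control, neither of them called. The lowest limma adjusted p of any member under any alternative was 0.402, for APOM in high-iron against low-iron with array quality weights.

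APOA4 is also a gene of the small intestine, and intestinal markers were looked at beside it. FABP2, RBP2 and MEP1A, which define absorptive cells, were listed at 0 in all 9 libraries. The 8 intestinal markers found summed to 0.999, 3.81 and 1.25 FPKM in low-iron replicates 2, 3 and 7, to 2.57, 0.681 and 1.66 in control replicates 4, 5 and 6 and to 1.79, 6.55 and 1.03 in high-iron replicates 2, 7 and 8. In the low-iron group these sums had the same order as APOA4, and in the high-iron group the opposite order. Only 1 of the 8 markers, VIL1, passed the filter on low values. It stood at 0.870, 3.14 and 0.745 FPKM in the low-iron, 2.30, 0.425 and 0.778 in the control and 1.21, 5.82 and 0.521 in the high-iron pigs. VIL1 alone had the opposite order to APOA4 in the high-iron group, but not the same order in the low-iron group. The part of these markers in the APOA4 values was not tested.

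APOA2 was higher on average in the high-iron group, but by less than the fold change set for a call. Its levels were 746, 884 and 428 FPKM in high-iron replicates 2, 7 and 8. Control replicates 4, 5 and 6 had 392, 533 and 301 FPKM, and low-iron replicates 2, 3 and 7 had 288, 447 and 466 FPKM. High-iron pigs 2 and 7 lay above all 6 others, while pig 8 lay among them, so the groups overlapped. High-iron against control gave a log2 fold change of 0.72 (SE 0.32, 95% interval 0.0042 to 1.44, adjusted p = 0.892), and high-iron against low-iron gave 0.75 (SE 0.32, 95% interval 0.03 to 1.46, adjusted p = 0.696). Exact permutation tests of the same pairs of groups gave p = 0.20 and p = 0.30. Low-iron against control differed by only -0.02 (SE 0.32). Leaving out high-iron replicate 8 raised the 2 differences to 1.03 (adjusted p = 1.00) and 1.05 (adjusted p = 0.950), which met the rule for a call. Array quality weights lowered them to 0.57 (SE 0.32) and 0.62 (SE 0.32). Neither had an unadjusted limma p under 0.05 with these weights, median-of-ratios scaling or quantile normalization. The same held with EIF1AY or the length gap described below as a covariate.

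Markers of other cell types were read in the same comparison of high-iron against control, in which 65.0% of all tested genes had a positive log2 fold change and 5.59% had p under 0.05. Of 10 macrophage markers 9 had a positive log2 fold change against control and 6 had p under 0.05, with 0 called, and their summed FPKM was 1101 to 1334 in the high-iron, 829 to 1085 in the control and 928 to 1078 in the low-iron group. Of 9 stellate cell and fibroblast markers 8 were positive, 3 had p under 0.05 and 2 of them were called, with sums of 220 to 327, 128 to 215 and 132 to 327 FPKM in the same order. Of 15 hepatocyte marker rows 4 were positive and 2 had a negative value with p under 0.05, with 0 called and with sums of 82112 to 94673, 89125 to 106139 and 84630 to 93859 FPKM. No marker of these 3 lists was at 0 in all libraries, and their part in the APOA2 and APOA4 values was not tested.

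APOA1, the main protein of HDL, was highest on average in the low-iron group. It stood at 2287, 1934 and 1474 FPKM in low-iron replicates 2, 3 and 7, at 1232, 1014 and 1955 in control replicates 4, 5 and 6, and at 1162, 1982 and 1631 in high-iron replicates 2, 7 and 8. The 3 groups overlapped, and control replicate 6 reached the level of the higher low-iron pigs. Low iron against control gave a log2 fold change of 0.47 (SE 0.32, 95% interval -0.23 to 1.17, adjusted p = 1.00), and it was 0.27 without control replicate 5 and 0.74 without control replicate 6, neither called. Within a library APOA1 exceeded APOA2 by 1.56 to 7.95 times, on average 5.15 ± 2.50 times in the low-iron, 3.85 ± 2.38 in the control and 2.54 ± 1.15 in the high-iron group (SD, n = 3), and the exact permutation test of the log ratio in high-iron against low-iron gave p = 0.20.

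APOM, the sphingosine-1-phosphate carrier of HDL, had the lowest mean of the 9 genes and was the one with the narrowest error. Low-iron replicates 2, 3 and 7 had 86.6, 67.5 and 75.7 FPKM. Control replicates 4, 5 and 6 had 66.4, 53.3 and 69.6 FPKM, and high-iron replicates 2, 7 and 8 had 45.8, 66.9 and 61.5 FPKM. Every low-iron pig lay above every high-iron pig, although low-iron replicate 3 and high-iron replicate 7 nearly touched, and the control pigs overlapped both groups. High-iron against low-iron gave a log2 fold change of -0.41 (SE 0.20, 95% interval -0.85 to 0.03, adjusted p = 0.724), and the exact permutation test gave p = 0.10.

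The VLDL scaffold and its loading protein changed little on average. APOB stood at 374, 677 and 345 FPKM in low-iron replicates 2, 3 and 7, at 498, 506 and 330 in control replicates 4, 5 and 6, and at 524, 396 and 479 in high-iron replicates 2, 7 and 8. The highest value and some of the lowest were found within the low-iron group, and the 3 groups overlapped throughout. Means were 466 ± 184 FPKM under low iron, 444 ± 99.0 under the control diet and 466 ± 64.9 under high iron (SD, n = 3), and the log2 fold change was 0.02 (95% interval -0.61 to 0.66) for low-iron and 0.09 (-0.55 to 0.73) for high-iron against control. MTTP ran at 87.7, 150 and 119 FPKM in the low-iron, 117, 122 and 102 in the control and 112, 117 and 154 in the high-iron pigs, in the same order of replicates. For MTTP the difference from control was 0.04 (95% interval -0.46 to 0.53) for low-iron and 0.16 (-0.34 to 0.66) for high-iron. APOB exceeded MTTP by 2.90 to 4.68 times in every library, on average 3.90 ± 0.877, 3.88 ± 0.556 and 3.72 ± 0.839 times in the 3 groups.

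APOC3, APOE and APOH are the 3 most abundant members. In the main fit, of all 9 libraries after the filter on low values, their intervals leave room for moderate differences but hold none of 2-fold size. APOC3 stood at 6986, 5386 and 9133 FPKM in low-iron replicates 2, 3 and 7, at 6895, 4720 and 6793 in control replicates 4, 5 and 6, and at 5271, 8105 and 6202 in high-iron replicates 2, 7 and 8. APOE stood at 6360, 4392 and 6757 FPKM in the low-iron, 4722, 4139 and 5342 in the control and 3724, 5874 and 5295 in the high-iron pigs. The same pigs were high in both genes, with low-iron replicate 7 at the top of each. The 95% intervals of the log2 fold change ran from -0.83 to 0.92 over the 3 comparisons of APOC3 and from -0.89 to 0.94 over those of APOE. APOH, at 3025, 2307 and 3416 FPKM in the low-iron, 2645, 3265 and 2937 in the control and 2650, 2854 and 2876 in the high-iron pigs, had the smallest range of the 9 genes, with a highest value 1.48 times the lowest. Its 3 intervals ran from -0.61 to 0.51. Without the filter on low values the SE was 5.15 for APOC3, 3.45 for APOE and 1.38 for APOH, too wide to exclude 2-fold differences.

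Together the 9 genes made up 3.40% to 5.05% of the FPKM sum of a library. The share was 4.42%, 3.98% and 5.05% in low-iron replicates 2, 3 and 7, 3.91%, 3.40% and 3.94% in control replicates 4, 5 and 6, and 3.49%, 4.73% and 4.18% in high-iron replicates 2, 7 and 8. All 3 low-iron pigs lay above all 3 control pigs, and the high-iron pigs overlapped both. Means were 4.48% ± 0.536, 3.75% ± 0.305 and 4.13% ± 0.620 (SD, n = 3), and the exact permutation test over the 3 groups gave p = 0.29. For low-iron against control alone the exact permutation test gave p = 0.10, its lowest possible value. APOC3, APOE and APOH supplied 72.8% to 85.7% of the members' sum in each library.

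**Figure D3:**
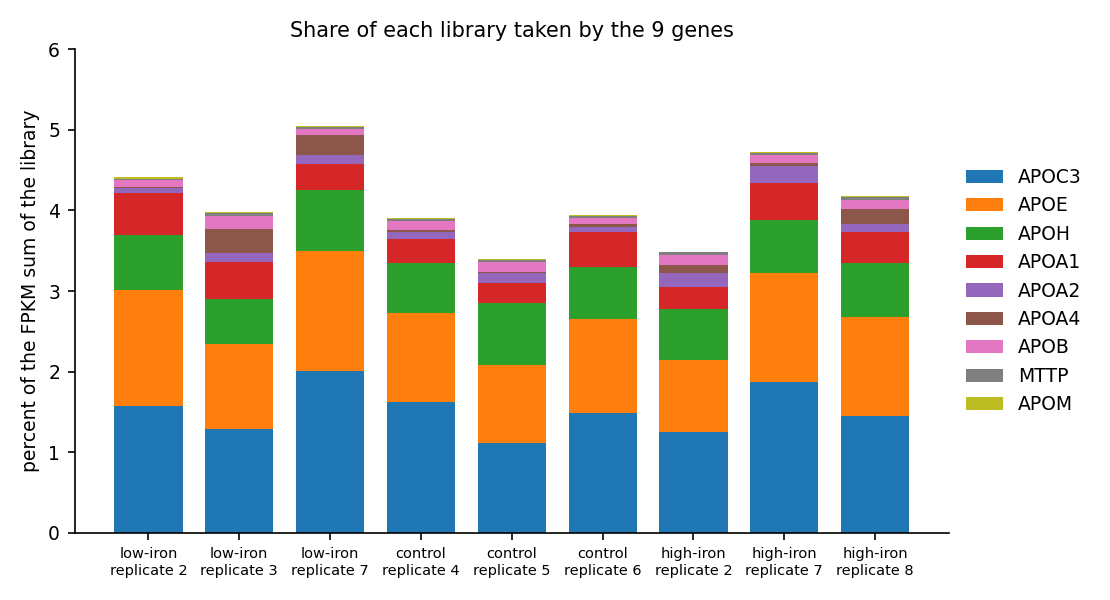
Percent of the FPKM sum of each library (vertical, from 0) taken by the 9 genes, stacked by gene, for the 9 libraries (horizontal). The bars reach between 3.40% (control replicate 5) and 5.05% (low-iron replicate 7), and APOC3, APOE and APOH fill most of each.

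The genes did not move as one set from pig to pig. Over the 9 libraries 36 pairs were compared by Pearson's r and Spearman's rho of log2(FPKM + 0.1), with exact permutation p-values adjusted over the 36. APOC3 and APOE rose and fell together (r = 0.88, adjusted p = 0.045, rho = 0.92, adjusted p = 0.047), with r = 0.82 when the 2 libraries farthest out in APOC3 were dropped and r = 0.88 on deviations from the group means. APOE and APOM also did by r (r = 0.85, adjusted p = 0.045), though not by rank (rho = 0.83, adjusted p = 0.099), and r was 0.63 without the 2 libraries farthest in APOE. No other pair passed 0.05 after adjustment. APOB went the other way from APOE (r = -0.77, p = 0.017, adjusted p = 0.16), APOC3 (r = -0.73, adjusted p = 0.16) and APOH (r = -0.71, adjusted p = 0.16), APOA1 went with APOM (r = 0.75, p = 0.018, adjusted p = 0.16) and APOA4 went with MTTP (r = 0.70, p = 0.032, adjusted p = 0.16), all by exact permutation.

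Of the neighbours in the genome, APOE shares its locus on chromosome 6 with APOC4 (51400909 to 51403719) and APOC2 (51404219 to 51406302), the latter the cofactor of lipoprotein lipase. Over the 9 libraries APOE moved with APOC4 (r = 0.92, adjusted p = 0.0032, rho = 0.88, adjusted p = 0.0077) and with APOC2 (r = 0.78, adjusted p = 0.031, rho = 0.90, adjusted p = 0.0077), by exact permutation adjusted over 5 relations. Without the 2 libraries farthest in those genes r was 0.88 and 0.73. An r of 0.87 marked the highest 1% of genes with APOE, and that of APOC2 lay below it. The length gap described below was not taken out of these relations. On chromosome 9 the r values were lower. APOA5 moved with APOA4 by r (r = 0.69, adjusted p = 0.045) but not by rank (rho = 0.68, adjusted p = 0.084), its r with APOC3 was 0.53 (adjusted p = 0.18) and its r with APOA1 was 0.47 (adjusted p = 0.21). Between members of that cluster r was 0.45 for APOA1 and APOC3, 0.07 for APOA4 and APOC3 and 0.06 for APOA1 and APOA4.

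A property of the libraries ran along with several of these relations. The libraries differed in how short and long transcripts stood to each other, measured after seeing the data as a length gap, the median log2 deviation of 723 genes with transcripts under 1000 bases minus that of 1105 genes with transcripts of at least 8000 bases. The gap lay between -0.27 (control replicate 5) and 0.47 (control replicate 6), with group means of 0.09 ± 0.28, 0.03 ± 0.39 and -0.07 ± 0.23 in the order low-iron, control and high-iron (SD, n = 3), and did not separate them (exact permutation p = 0.82). EIF1AY was at 0 in low-iron replicate 3, control replicate 5 and high-iron replicates 2 and 8. These libraries had the lowest gaps, from -0.27 to -0.18, and all others had -0.11 or more. The gap and the presence of EIF1AY therefore cannot be told apart here. APOC3 lay at 4720 to 6202 FPKM in the libraries without EIF1AY and at 6793 to 9133 in the others. APOB and APOE overlapped between them. APOB, whose longest transcript has 14159 bases, fell as the gap rose (r = -0.89, adjusted p = 0.0092, rho = -0.90, adjusted p = 0.018). APOC3 (676 bases, r = 0.79, adjusted p = 0.057, rho = 0.83, adjusted p = 0.025) and APOE (1099 bases, r = 0.77, adjusted p = 0.061, rho = 0.85, adjusted p = 0.025) went the other way, by exact permutation adjusted over the 9 genes. The other members did not sort by length. Shortest of all, APOA2 (474 bases) had r = -0.29, APOA1 (891 bases) 0.54 and APOH (1198 bases) 0.44. For APOA4 (1386 bases) r was -0.05, for APOM (2663 bases) 0.64 and for MTTP (3911 bases) -0.52. None of these passed 0.05 after adjustment, by r or rho. Without the 2 libraries of the largest gaps, low-iron replicate 7 and control replicate 6, r was -0.80 for APOB, 0.90 for APOC3 and 0.86 for APOE.

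**Figure D4:**
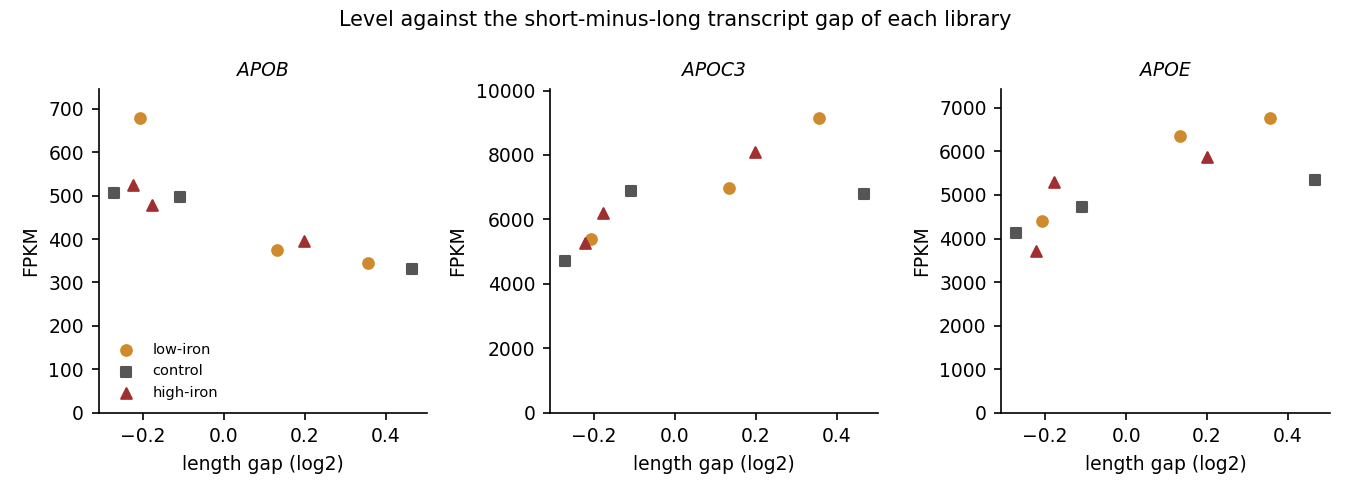
FPKM (vertical, from 0) of APOB, APOC3 and APOE against the length gap of the library (horizontal, log2, short minus long transcripts), with one point per library and colours and shapes for the 3 diets. APOB lies between 479 and 677 FPKM in the 5 libraries with a negative gap and between 330 and 396 FPKM in the 4 with a positive one, and APOC3 and APOE tend upwards, with pigs of each diet on both sides.

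When each gene was taken as its deviation from a straight line on the length gap, some of the pairs kept their relation and others did not. The r of APOC3 and APOE was 0.70 and that of APOE and APOM 0.74 on these deviations. The r of APOB with APOE went from -0.77 to -0.28 and with APOC3 from -0.73 to -0.08, whereas that of APOB with APOH was -0.80 and that of APOA4 with MTTP 0.80. These values describe the 9 libraries and carry no test, and they do not separate the gap from the presence of EIF1AY. With the gap as a covariate 0 of the 9 genes were called in any comparison.

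**Figure D5:**
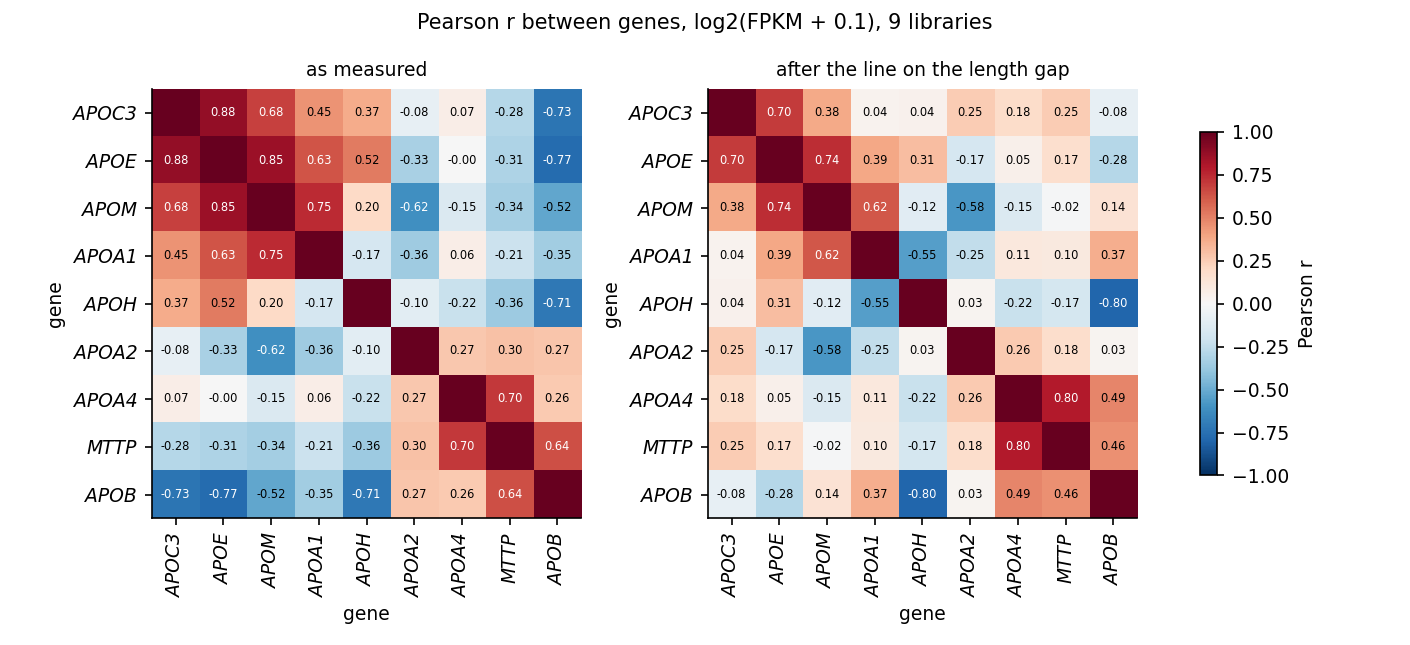
Pearson r between the 9 genes (both axes) over 9 libraries, as measured on the left and after subtracting each gene's line on the length gap on the right, with red for positive and blue for negative values. APOC3, APOE and APOM form a positive block on the left, and the blue cells of APOB with APOC3 and APOE pale on the right.

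Transcription factors of these genes were compared with them over the same 9 libraries. CREB3L3, a liver factor activated by fasting, stood at 95.3, 145 and 147 FPKM in the low-iron, 123, 69.6 and 125 in the control and 117, 122 and 184 in the high-iron pigs. Its r with APOA4 was 0.74 (p = 0.014, rho = 0.70), which did not pass adjustment over the 18 relations of CREB3L3 and HNF4A with the 9 genes (adjusted p = 0.25 and 0.78, exact permutation), and it was 0.83 without the 2 libraries farthest in CREB3L3. HNF4A had 63.5, 96.3 and 102 FPKM in the low-iron, 56.7, 92.3 and 67.3 in the control and 58.7, 55.8 and 63.4 in the high-iron pigs. Its high-iron values all lay below its low-iron values, though 63.4 and 63.5 FPKM nearly touched (log2 fold change -0.53, SE 0.24, limma adjusted p = 0.697). The r of HNF4A with the 9 genes ran from -0.14 to 0.44, with no relation passing adjustment. On deviations from the group means its r was 0.71 with APOA4 and 0.64 with MTTP, but -0.59 with APOM and -0.51 with APOA1. Without the 2 libraries farthest in HNF4A it was -0.25 with APOA4 and 0.07 with MTTP. It was then 0.86 with APOH and -0.70 with APOC3, which had 0.25 and -0.33 on deviations. These side values were not tested and depended on the libraries kept.

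The genes most like each member were sought among 11123 tested genes with a symbol, by Pearson's r over the 9 libraries and as a description only. They were AP2S1 (r = 0.98) and ASPG (0.97) for APOC3, C2H19orf53 (0.98) and FGFRL1 (0.96) for APOE, and PMPCB (0.96) and RNF128 (0.95) for APOH. For APOB they were HUWE1 (0.97) and PFKFB2 (0.97), whose longest transcripts have 14336 and 10028 bases, and CSGALNACT2 (0.94) was the one given here for MTTP. APOA4 was most like MCFD2 (0.94), a cargo receptor partner in transport from the endoplasmic reticulum, and CEACAM1 (0.93). The remaining pairs were TACO1 (0.96) and SET (0.93) for APOA1, TATDN3 (0.94) and FASTKD3 (0.93) for APOA2, and COPS3 (0.98) and HSF1 (0.96) for APOM. With 9 libraries an r of 0.76 to 0.88 already marked the highest 1% of genes, depending on the member.

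The rest of the lipoprotein pathway was read from 5 lists with 109 genes, of which 104 were found and 98 tested. Few were called, 1 in low-iron against control, 2 in high-iron against control and 0 in high-iron against low-iron, that is 1.02%, 2.04% and 0% beside 0.882%, 1.57% and 1.54% of all genes. Unadjusted p under 0.05 was reached by 4, 6 and 4 of the 98, and an adjusted p under 0.05 by none. Among 13 other apolipoproteins and HDL proteins 0 were called in any comparison, with median log2 fold changes of 0.18, 0.20 and -0.08 in the same order of comparisons. The 27 tested genes of lipoprotein assembly and secretion, which include the chaperones and coat proteins that serve APOB and MTTP, also gave 0 calls, with medians of 0.08, 0.09 and -0.06.

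Of the receptors for the particles 1 was called. Of 13 tested genes of receptors and uptake, 13 had a positive log2 fold change in low-iron and 10 in high-iron against control, with medians of 0.21 and 0.24, beside 62.7% and 65.0% of all tested genes and medians of 0.08 and 0.10 over them, and both comparisons share the control pigs. VLDLR, the receptor of triglyceride-rich particles, was called in high-iron against control. It stood at 5.38, 4.58 and 5.86 FPKM in the high-iron pigs, at 3.24, 1.39 and 3.59 in the control and at 3.57, 4.67 and 3.54 in the low-iron pigs. The log2 fold change was 1.02 (SE 0.32, adjusted p = 0.885), and it was 0.61 without control replicate 5, 1.00 without high-iron replicate 2 and 0.94 without high-iron replicate 8, none of which reached 2-fold.

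The scavenger receptors STAB1 and STAB2 of sinusoidal endothelium were among the genes of lowest p. STAB1 stood at 18.3, 20.1 and 20.4 FPKM in the low-iron, 12.9, 15.5 and 12.3 in the control and 18.6, 18.4 and 19.3 in the high-iron pigs, so both iron extremes lay wholly above the control group. For STAB1 the difference was 0.54 on the log2 scale (SE 0.16, adjusted p = 1.00) for low-iron and 0.47 (SE 0.16, adjusted p = 0.885) for high-iron, under 2-fold in both. STAB2 gave 0.59 (SE 0.23, adjusted p = 1.00) for low-iron against control. Both mark endothelial cells, and 8 endothelial markers, STAB2 among them, were read beside them. Of these, 5 were positive in low-iron and 7 in high-iron against control, beside 62.7% and 65.0% of all tested genes. An unadjusted limma p under 0.05 was reached by 1 and 4 of the 8, beside 3.68% and 5.59% of all. Called were 0 and 1 of the 8, beside 0.882% and 1.57% of all. The summed FPKM of the 8 was 197 to 260, 188 to 223 and 229 to 278 under low, control and high iron, and none was at 0 throughout. Their part in the receptor values was not tested.

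Of 16 lipases, their regulators and lipid transporters, ABCG1 was called in high-iron against control. ABCG1, which hands cholesterol from cells, macrophages among them, to HDL, stood at 1.99, 1.64 and 1.46 FPKM in the high-iron, 0.956, 0.948 and 0.373 in the control and 1.16, 0.821 and 1.26 in the low-iron pigs. All high-iron pigs were above all others. The log2 fold change was 1.15 (SE 0.37, adjusted p = 0.885), and 0.76 without control replicate 6, which was then not called. It is a low value beside the macrophage marker sums given above, and their part in it was not tested.

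Of 29 tested regulators of transcription 1 was called. THRB, the thyroid hormone receptor of liver, fell in the low-iron group, with 2.84, 1.45 and 1.89 FPKM against 4.94, 5.38 and 3.10 in the control and 3.42, 4.20 and 3.62 in the high-iron pigs. Every low-iron pig lay below every other pig. The log2 fold change against control was -1.10 (SE 0.29, adjusted p = 1.00), and it was -0.88 without low-iron replicate 3 and -0.95 without control replicate 5, in both cases under 2-fold. In high-iron against low-iron THRB differed by 0.88 (SE 0.29, adjusted p = 0.615), and by 1.12 without low-iron replicate 2, which met the rule for a call. FOXA3, a factor that opens liver chromatin, and CEBPB gave -0.53 (SE 0.22) and -0.67 (SE 0.29) there, with overlapping groups and adjusted p of 0.674 and 0.697.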

How the data were processed

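Liver RNA of 9 Wujin pigs was sequenced by the authors, who used HISAT2 (alignment to Sscrofa11.1) and StringTie (assembly) and deposited 1 table of FPKM values per gene, normalised by them for length and for fragments mapped. No counts were used here, so the number of fragments behind each value and its counting error are unknown, and replicates are single pigs by the study's methods. Numbered rows were read as the gene lines of NCBI annotation release 106 in order, counted from 0, where all 20660 fell on protein-coding genes. Genes with a mean of at least 0.5 FPKM over 9 libraries were fitted as log2(FPKM + 0.1) with limma 3.58.1 (R 4.3.3) over the 3 groups, with Benjamini-Hochberg adjustment, in place of the count test of the authors. A fold change on this scale understates that of low genes. The fit was tested on simulated data. Exact permutation tests over libraries (two-sided for pairs of groups and correlations), motifs and figures used Python 3.11.15 and numpy 2.4.6. The 9 genes, the gene lists, the motifs and the length gap were chosen with earlier results of these data known. Named genes were all members, other lipoprotein genes called or among the 3 lowest p-values of a comparison, the 2 genes most like each member, a few markers, and, chosen after their values were seen, CREB3L3, HNF4A, APOA5, APOC2, APOC4, HSPA5, P4HB and SEC24D. Of the genes this rule takes, 1 is not reported here. Alternatives were other pseudocounts, filters and scalings, fits of the compared groups only, array weights, EIF1AY, animal number or the length gap as a covariate, and each library left out.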

Additional observations from a re-analysis of the deposited data

How the results depend on the processing

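The 27 log2 fold changes of the 9 genes were recomputed under each alternative, 576 values in all, of which 516 kept direction and side of the rule for a call, 7 kept direction and were newly called and 53 turned direction. Every value that turned belonged to a difference of at most 0.13 in size. No member had an adjusted p under 0.05 in any alternative. With 3 pigs per group the 95% intervals given above hold the differences that the main fit leaves possible, and the FPKM table gives no counts for a count model. Replicates left out leave 2 pigs in a group, assumed to vary like the rest. The cause of the changes below was not tested.

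Members called in high-iron against control numbered 1 (APOA4) when the fit held only the groups compared and 1 (APOA4) with array quality weights. Other lipoprotein genes called in low-iron against control went from 1 to 0 with a pseudocount of 1, to 2 with median-of-ratios scaling, 2 with quantile normalization and 2 with scaling to the sum without the 10 highest genes (ESR1 joining THRB each time), and to 2 with array weights (SAA4 joining). In high-iron against control they went from 2 to 0 with a pseudocount of 1, 1 with median-of-ratios scaling (ABCG1), 0 with quantile normalization and 1 with array weights. In high-iron against low-iron array weights gave 1 (SAA4). ESR1 and SAA4 were named after their values were seen. Numbers 2 and 7 occur in both the low-iron and high-iron groups, and the correlation of the same-numbered libraries' deviations from their group means was 0.02 for each. With 2 such pairs this cannot tell whether the pigs shared more than a number. With the number as a replicate block, high-iron against low-iron gave 1 member called (APOA2), 1 other lipoprotein gene (SAA4) and 459 genes in all, in place of 194. That fit left 1 residual degree of freedom. Its difference rests on the pigs numbered 2 and 7, since no other number occurs in both groups, and high-iron replicate 8 had no part in it.

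Over libraries left out one at a time, members called ranged from 0 to 1 in each comparison, and other lipoprotein genes from 1 to 4 in low-iron against control and 0 to 2 in high-iron against low-iron. All genes called ranged from 111 to 209, from 190 to 296 and from 186 to 333 in the 3 comparisons. The exact permutation p of the members' share was 0.35 without the 10 highest other genes in the sum, and ranged from 0.16 to 0.49 with libraries left out. A pseudocount of 1 gave 34, 74 and 67 genes called, no filter gave 235, 372 and 354, and array weights gave 171, 275 and 334. The share of calls that were higher was 67.6%, 81.2% and 65.5%, against 52.5%, 67.1% and 60.6% with median-of-ratios scaling, 52.6%, 55.0% and 46.2% with quantile normalization and 54.8%, 78.8% and 75% with the sum without the 10 highest genes. Median-of-ratios scaling moved the median of all genes from 0.10 to -0.0038 in high-iron against control.

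Log2 fold changes that turned in low-iron against control were those of APOB (-0.054, -0.020, -0.035 and -0.11) and MTTP (-0.043, -0.051, -0.024 and -0.058) under median-of-ratios scaling, quantile normalization, the sum without the 10 highest genes and array weights in that order, and APOH with array weights (0.073). In high-iron against control median-of-ratios scaling turned APOB (-0.019), APOC3 (-0.018) and APOE (-0.056), quantile normalization turned APOC3 (-0.0012) and APOH (0.063), array weights turned APOH (0.0017), and APOB turned with EIF1AY (-0.071) and with the length gap (-0.023) as a covariate. In high-iron against low-iron APOA4 turned with median-of-ratios scaling (-0.0047), EIF1AY (-0.31) and the length gap (-0.015), APOB with EIF1AY (-0.098) and the length gap (-0.12), APOC3 with EIF1AY (0.038) and the length gap (0.019), and APOH with quantile normalization (0.10) and the sum without the 10 highest genes (0.0098).

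With libraries left out, low-iron against control ranged from -0.22 to 0.20 for APOA2, -0.28 to 0.21 for APOB, -0.15 to 0.13 for APOH and -0.15 to 0.24 for MTTP. High-iron against control ranged from -0.11 to 0.20 for APOB, -0.092 to 0.23 for APOC3, -0.085 to 0.24 for APOE, -0.15 to 0.0021 for APOH and -0.25 to 0.033 for APOM. High-iron against low-iron ranged from -1.52 to 0.83 for APOA4, -0.12 to 0.37 for APOB, -0.31 to 0.066 for APOC3, -0.20 to 0.079 for APOH and -0.079 to 0.31 for MTTP.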

Other observations

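A few genes of the endoplasmic reticulum, chosen after their values were seen, were high in 1 low-iron pig. HSPA5, the main chaperone of the endoplasmic reticulum, stood at 444 FPKM in low-iron replicate 3 and between 133 and 215 FPKM in the other 8 libraries. SEC24D, a coat protein of the vesicles that leave that compartment, stood at 31.9 FPKM in the same pig and between 8.86 and 16.2 FPKM in the others. The same pig had the highest APOB (677 FPKM) and the highest APOA4 (1248 FPKM) of the 9, and P4HB, the disulfide isomerase that is the partner subunit of MTTP, stood at 459 FPKM there and between 292 and 487 FPKM in the others. The 28 genes of lipoprotein assembly and secretion as a whole summed to 2569 FPKM in that pig, below the 2768 FPKM of control replicate 6.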
